A study of Mus musculus with 3 samples.

Results

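Acute phase proteins are plasma proteins that the liver makes in larger amounts during inflammation. The genes described here are 10 of this kind: Saa1, Saa2, Saa3 and Saa4, which encode the serum amyloid A apolipoproteins; Serpina3n, a serine protease inhibitor related to human alpha-1 antichymotrypsin; the pentraxins Crp and Apcs; the orosomucoids Orm1 and Orm2; and Hp, which encodes haptoglobin. They were taken as every probe whose annotated gene symbol is one of these names. All 10 genes were on the array with 1 probe each, out of 13697 genes with a single symbol and a value in every array.

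Messenger RNA of whole fetal liver from mouse embryos at E14.5 had been measured on 3 single-colour CodeLink arrays. One array held wild-type liver, another DNase II-deficient liver, and the third liver of embryos that were DNase II-/- and IFN-IR-/-, called double-deficient here, so the DNase II deficiency is common to both mutants. DNase II is the lysosomal enzyme with which macrophages digest engulfed DNA, and IFN-IR is the receptor of type I interferon. Strain, sex and the number of embryos behind each array are not stated in these sources. Without replicates every difference is a value of these arrays, with no test, and their number limits the precision.

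In an inflamed liver, hepatocytes are stimulated by interleukin-6 family cytokines, which act through STAT3, and by interleukin-1 and tumour necrosis factor, which act through NF-kB. C/EBP-beta and C/EBP-delta are further transcription factors of this response. Some of the proteins are also made outside hepatocytes: serum amyloid A3 by macrophages and haptoglobin by developing neutrophils. In mice, serum amyloid P component, the product of Apcs, is the pentraxin with the marked acute phase response, and C-reactive protein responds little.

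The RefSeq reference for GRCm38.p6 places Saa3, Saa4, Saa1 and Saa2 next to each other, in that order, on chromosome 7, and Crp beside Apcs on chromosome 1. Promoter sequence was matched for 8 of the 10 genes, all but Orm1 and Hp. The 250 bases before the annotated start are printed for the 3 genes whose levels differed most between the mutant arrays or from wild-type, and capitals mark matches to 4 short motifs searched on both strands. These windows lie at chr7:46715677-46715926 on the minus strand for Saa3, chr12:104406458-104406707 on the plus strand for Serpina3n and chr7:46732604-46732853 on the minus strand for Saa4, each written 5′ to 3′ along the gene.
Saa3: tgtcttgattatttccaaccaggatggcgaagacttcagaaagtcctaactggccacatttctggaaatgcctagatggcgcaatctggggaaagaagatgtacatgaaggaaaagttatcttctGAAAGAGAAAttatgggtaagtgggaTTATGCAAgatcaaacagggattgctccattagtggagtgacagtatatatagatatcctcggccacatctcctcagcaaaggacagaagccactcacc
Serpina3n: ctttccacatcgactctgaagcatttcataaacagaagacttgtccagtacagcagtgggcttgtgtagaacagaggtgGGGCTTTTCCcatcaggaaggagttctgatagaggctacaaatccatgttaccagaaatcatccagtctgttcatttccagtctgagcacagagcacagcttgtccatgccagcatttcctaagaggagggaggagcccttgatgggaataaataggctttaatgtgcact
Saa4: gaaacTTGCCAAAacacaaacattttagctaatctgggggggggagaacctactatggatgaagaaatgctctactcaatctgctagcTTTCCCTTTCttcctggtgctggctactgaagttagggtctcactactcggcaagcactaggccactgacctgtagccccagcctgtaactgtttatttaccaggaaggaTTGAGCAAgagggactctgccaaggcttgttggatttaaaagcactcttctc

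The motifs were TTGC and AA separated by any 2 bases for C/EBP, GGG and TTTCC separated by any 2 bases for NF-kB, TTC and GAA separated by any 3 bases for STAT factors, and GAAA repeated after any 2 bases for the interferon-stimulated response element. Saa3 has a C/EBP match, TTATGCAA on this strand, that begins at position -99 counted from the annotated start, and an interferon element match, GAAAGAGAAA, that begins at -125. Serpina3n has only the NF-kB match, GGGCTTTTCC, which begins at -171. Saa4 has a pair of C/EBP matches and an interferon element match on the opposite strand. Among all 32851 promoter windows of this length in the reference, 9.56% hold the C/EBP motif, 1.41% the NF-kB motif, 7.02% the STAT motif and 2.98% the interferon element. Of the 8 windows, 5 hold the C/EBP motif, 1 the NF-kB motif, 2 the interferon element and 1, that of Apcs, the STAT motif. The Saa1 and Saa2 windows are 94.8% identical when aligned and hold the same C/EBP match, TTGCACAA, so their counts are not independent; Saa3 and Saa4 are 44.5% identical there. A match of letters is a description and not a measured binding site.

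The values deposited are normalised intensities on a linear scale. Where 3 values follow each other they stand for wild-type first, DNase II-deficient next and double-deficient last. The array median was 0.958 in wild-type, 0.959 in DNase II-deficient and 0.964 in double-deficient. Values under the array's 25th percentile, 0.162, 0.159 and 0.163, were too dim to order and were set to it; this is called the floor here. A gene was compared between 2 arrays where its probe exceeded the median of either array, and differences are given on the log2 scale. The spread quoted beside a difference is that of the differences among the 500 genes nearest in level; it describes these arrays and is not a replicate error. The probe of Dnase2a, which encodes DNase II, read 40.4, 48.6 and 39.7, and those of the receptor chains Ifnar1 and Ifnar2 read 3.60, 4.66 and 3.17, and 0.574, 0.485 and 0.483. Whether the probes fall inside the deletions is unknown here, so directions are those of the arrays as labelled. Afp, the fetal hepatocyte protein alpha-fetoprotein, read 582.5, 885.1 and 568.5, and the globin gene Hba-a1 read 631.7, 481.7 and 546.8, so hepatocyte and red cell transcripts were bright in all 3 arrays.

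Saa3 encodes the serum amyloid A that macrophages as well as liver cells make. Its probe read 1.36 in wild-type, 15.7 in DNase II-deficient and 26.8 in double-deficient. Both mutant arrays were thus far above wild-type, and the one without the interferon receptor was the higher. Saa3 was 11.5-fold higher in DNase II-deficient than in wild-type, a log2 difference of 3.53 against a spread of 0.49. In double-deficient it was 19.8-fold above wild-type, a log2 difference of 4.30 against a spread of 0.29, the rank 3 among 8158 genes ordered from the most positive difference. Between the mutants it was 1.71-fold higher in double-deficient, a log2 difference of 0.78 against a spread of 0.37, below 2-fold.

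Serpina3n showed another order of the arrays. Its probe read 0.440 in wild-type, 8.84 in DNase II-deficient and 0.883 in double-deficient. Only the DNase II-deficient array lay above the array median, and the gene entered the comparisons through that array. It was 20.1-fold higher there than in wild-type, a log2 difference of 4.33 with a spread of 0.49, which was rank 36 from the top of 8383 genes. It was 10-fold lower in double-deficient than in DNase II-deficient, with a log2 difference of -3.32 and a spread of 0.41, rank 36 from the bottom of 8303 genes. Double-deficient and wild-type were both under the array median and were not compared; their levels differed 2.01-fold. The mouse genome carries many copies related to Serpina3n, and which of them the probe detects was not determined. Of 10 other Serpina3 genes listed, 2 were measured. Serpina3b read 0.669, 1.76 and 0.806 and was 2.63-fold higher in DNase II-deficient than in wild-type, and Serpina3a read 1.87, 1.98 and 1.5.

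Hp encodes haptoglobin, which binds free haemoglobin in plasma. Its probe read 10.1 in wild-type, 41.7 in DNase II-deficient and 32.2 in double-deficient. Both mutant arrays were high and near each other. Hp was 4.12-fold higher in DNase II-deficient than in wild-type (log2 difference 2.04, spread 0.44) and 3.18-fold higher in double-deficient than in wild-type (log2 difference 1.67, spread 0.24). Between the mutants the log2 difference was -0.37, close to the spread of 0.35. Hpx, which encodes the haem-binding hemopexin and was not among the 10, read 67.3, 104.7 and 93.9, with log2 differences from wild-type of 0.64 and 0.48.

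Saa4 encodes the serum amyloid A that is made constitutively. Its probe read 5.99 in wild-type, 6.64 in DNase II-deficient and 0.875 in double-deficient. The first 2 arrays were alike and the double-deficient array stood below, just under the array median. The log2 difference of DNase II-deficient minus wild-type was 0.15 with a spread of 0.49. Saa4 was 6.85-fold lower in double-deficient than in wild-type, a log2 difference of -2.78 against a spread of 0.27, and ranked 5 from the bottom of 8158 genes. Against DNase II-deficient it was 7.59-fold lower, with a log2 difference of -2.92 and a spread of 0.39. Saa4 and its chromosomal neighbour Saa3 therefore differed from wild-type in opposite directions in the double-deficient array. This rests on 1 probe for each gene.

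The pentraxins differed little. Crp, the C-reactive protein gene, read 17.9 in wild-type, 15.5 in DNase II-deficient and 18.8 in double-deficient. Its log2 differences were -0.20 for DNase II-deficient minus wild-type and 0.07 for double-deficient minus wild-type, both smaller than the spreads of 0.44 and 0.24, and the sign of the first depended on the scaling, with values from -0.20 to 0.09. Apcs, the serum amyloid P gene, read 6.91, 4.77 and 5.63. It was the only gene of the 6 compared that lay below wild-type by more than the spread in DNase II-deficient, barely so, at -0.53 with a spread of 0.49, and its difference ranged from -0.53 to -0.30 over the alternatives. In double-deficient minus wild-type the difference of Apcs was -0.30, as large as the spread of 0.30.

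Saa1, Saa2, Orm1 and Orm2 gave hardly any signal. Saa1 and Saa2, the serum amyloid A genes most strongly induced in adult liver, read -0.0378, 0.0607 and 0.0377 for Saa1 and 0.125, 0.0841 and 0.463 for Saa2. The probe of Orm1 read 0.0628, 0.150 and 0.173, and that of Orm2 read 0.108, 0.0860 and 0.0904. All 4 were at the floor in wild-type and in DNase II-deficient. Saa2 was above it in double-deficient, where its probe was at least 2.86-fold higher than in wild-type, and Orm1 lay just above it there. Whether these probes distinguish Saa2 from Saa1, or Orm1 from Orm2, was not determined. None of the 4 reached the array median in any array, so none was compared, and values at the floor have no order among themselves. Orm3, the neighbouring orosomucoid gene, was at the floor in all 3 arrays as well.

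**Figure D1:**
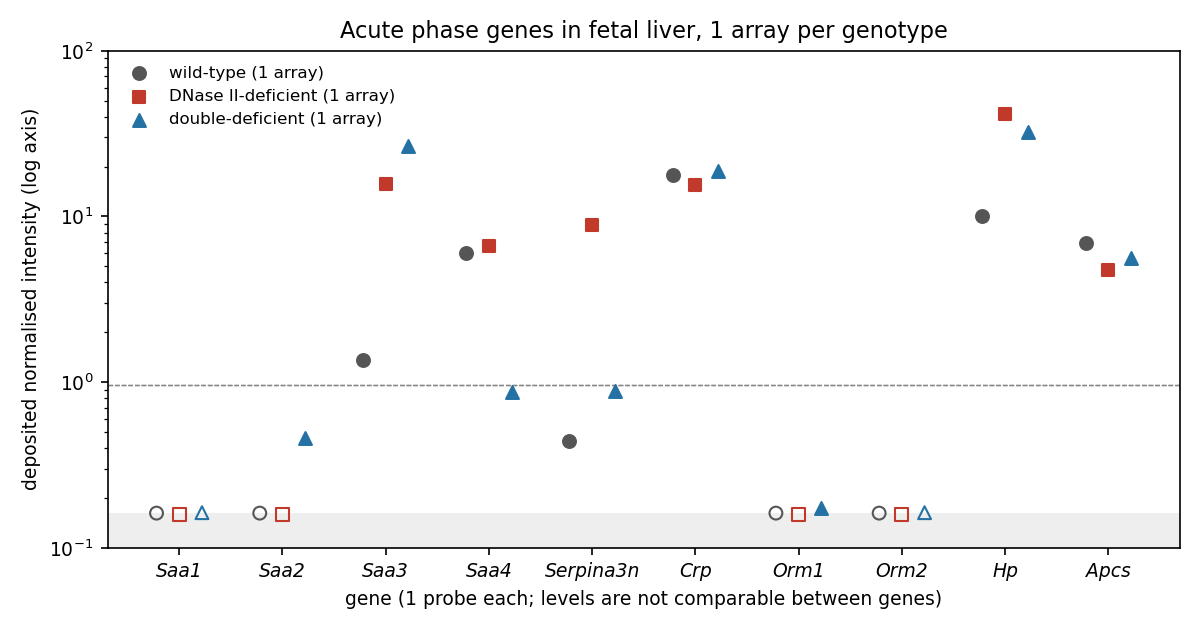
Deposited normalised intensity on a log axis of the 10 acute phase genes, 1 probe each: circles for wild-type, squares for DNase II-deficient, triangles for double-deficient; open symbols in the grey band are at the floor and the dashed line is the array median. Saa3 and Hp are high in both mutant arrays, Serpina3n in DNase II-deficient alone (8.84), and Saa4 is low in double-deficient alone (0.875).

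Counted together, 6 of the 10 genes were compared between DNase II-deficient and wild-type. Of these, 3 (Saa3, Serpina3n and Hp) were higher by 2-fold or more and 0 lower to that extent; the background over all 8383 genes was 7.67% higher and 6.17% lower by that measure. The median log2 difference of the 6 was 1.10, against -0.21 for all genes compared. Between double-deficient and DNase II-deficient, 2 of 6 (Serpina3n and Saa4) were at least 2-fold lower and 0 higher, against 4.85% and 3.11% of 8303 genes, and the median was -0.07 against 0.11. Between double-deficient and wild-type, 2 of 5 (Saa3 and Hp) were at least 2-fold higher and 1 (Saa4) lower, against 2.05% and 0.735% of 8158 genes, with a median of 0.07 against -0.08. Each pair of comparisons shares an array, so they are not independent of each other. With so few genes, each of which entered only if it was bright in an array, these counts describe the 10 genes and support no statement about acute phase genes in general. The share of higher genes among all 2-fold calls depended on the scaling: in DNase II-deficient minus wild-type it was 55.4% as deposited and 65.8%, 67.1% and 74.2% with quantile, 75th percentile and cyclic loess scaling, while the median of all genes went from -0.21 to -0.07, -0.07 and 0.03. In double-deficient minus DNase II-deficient the share was 39.0% as deposited and 23.9% with cyclic loess, with medians of 0.11 and -0.04.

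**Figure D2:**
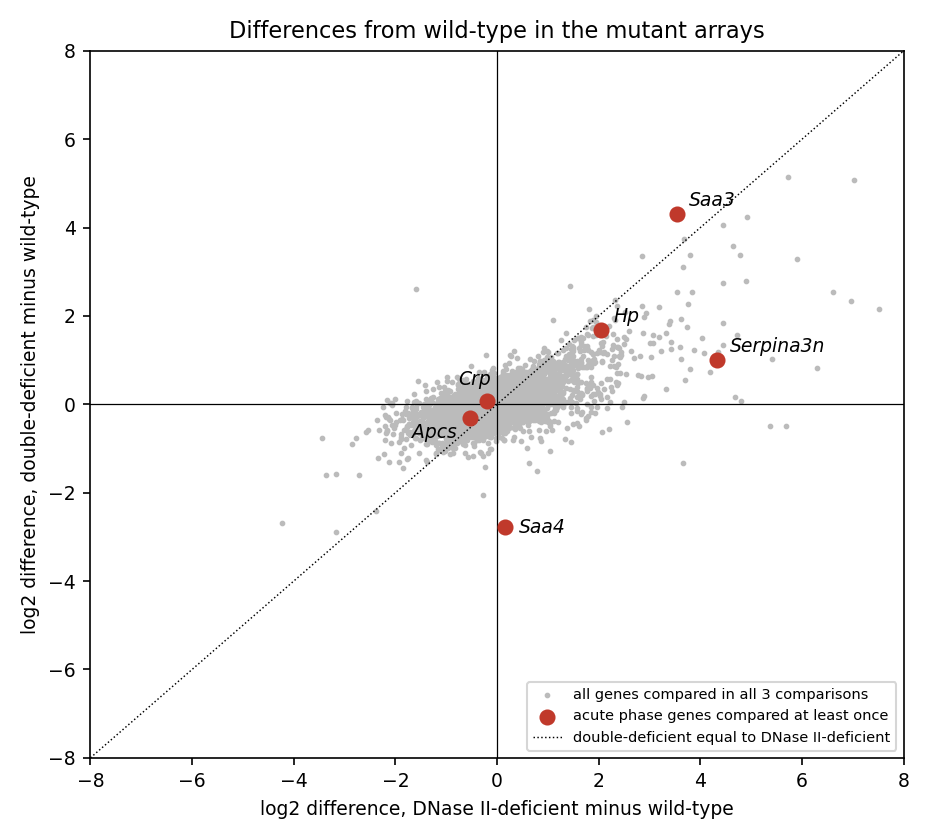
Log2 difference from wild-type of the DNase II-deficient array (horizontal) and of the double-deficient array (vertical) for all genes compared in all 3 comparisons (grey) and for the 6 acute phase genes compared at least once (red); on the dotted line both mutants are equal. Saa3 and Hp lie near the dotted line, Serpina3n far below it at 4.33 and 1.0, and Saa4 at 0.15 and -2.78. The axes share the wild-type array.

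The genes nearest to each of the 4 in this plane were taken by Euclidean distance over the log2 differences from wild-type, among 7920 genes compared in all 3 comparisons. Nearest to Serpina3n were Igfbp1, which encodes an insulin-like growth factor binding protein of liver, at a distance of 0.17, and the interferon-inducible genes Ifitm3 and Ifi204 at 0.29 and 0.30. Igfbp1 read 4.06, 82.8 and 9.19. The second coordinate of Serpina3n, 1.0, is a difference for which it was not compared. Genes under the array median in both wild-type and double-deficient, as Serpina3n was, were left out of the search. Nearest to Hp were Slc15a3, Sorl1 and Aoah, at 0.13, 0.16 and 0.17; Aoah encodes an enzyme of phagocytes that inactivates endotoxin. Saa3 had fewer genes close by: Bcl2a1b, a relative of Bcl2 in blood cells, at 0.59, and the chemokine gene Ccl7 and Gpnmb at 0.95 and 0.97, both of which were at the floor in wild-type. Saa4 was the most isolated, with Slc15a2 at 0.84 and Hpd and Barx1 at 1.42 and 1.43. Likeness over 3 arrays is a weak criterion, and more genes lie near a small difference than near a large one.

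Other positive acute phase genes were taken from a list of 22, of which 17 were measured and 13 compared between DNase II-deficient and wild-type. The median log2 difference of the 13 was 0.42 against -0.21 for all genes. Of the 13, 4 were higher by 2-fold or more and 0 lower, against 7.67% and 6.17% of all genes compared. They were Hamp, the iron hormone hepcidin, at 5.43, 117.7 and 13.7; Lrg1, a leucine-rich glycoprotein, at 0.303, 3.74 and 1.15; Cd14, the endotoxin co-receptor, at 0.876, 3.32 and 1.69; and Fgl1, a liver-secreted fibrinogen-like protein, at the floor in wild-type and then 2.93 and 0.838. All 4 were lower in double-deficient than in DNase II-deficient. Hamp was 8.56-fold lower there, with a log2 difference of -3.10, near the -3.32 of Serpina3n. Fgl1 was 3.50-fold and Lrg1 3.26-fold lower, and Cd14 was 1.96-fold lower. Lrg1, Cd14 and Fgl1 were under the array median in wild-type, so they entered the count against wild-type through the DNase II-deficient array. The log2 difference of Fgl1 there, 4.18, is a lower bound set by the floor and stands against a spread of 1.26. The fibrinogen chains Fga, Fgb and Fgg, which are abundant in liver without inflammation, stayed within a log2 difference of 0.28 of wild-type in both mutants. Of the 8 measured negative acute phase genes, whose products decline in adult inflammation, 0 were 2-fold different in any of the 3 comparisons; Ttr, for transthyretin, read 429.1, 466.2 and 379.4. Their median was -0.33 in double-deficient minus wild-type. In DNase II-deficient minus wild-type it was -0.22, and its sign depended on the scaling (0.02 with quantile and 0.12 with cyclic loess scaling).

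Genes of the signals that induce acute phase proteins were examined next. Of the interleukin-6 family and STAT3 list, 14 of 17 genes were measured and 9 compared, and 1 was at least 2-fold higher in DNase II-deficient than in wild-type, a share near the background of 7.67% over all genes. It was Il6st, the shared receptor chain gp130, at 2.24, 5.34 and 4.31. Il6 itself was dim, at 0.442, 0.635 and 0.659, and Il11 was at the floor in all 3 arrays. Stat3 read 16.7, 22.5 and 19.7, and its target Socs3, which restrains the same pathway, 1.47, 2.12 and 1.67. In the comparisons of double-deficient with each other array, 0 of the 9 were 2-fold different as deposited; with cyclic loess scaling 1 was higher in double-deficient than in wild-type.

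Of the interleukin-1, tumour necrosis factor and NF-kB list, 18 of 20 genes were measured and 11 compared, and 3 were at least 2-fold higher in DNase II-deficient than in wild-type. The background over all genes was 7.67%. Il1b, for interleukin-1 beta, read 0.201, 1.54 and 0.730, although Il1a read 0.435, 0.394 and 0.586. Nfkbia, the inhibitor that NF-kB itself induces, read 7.27, 40.9 and 18.7, and the NF-kB subunit gene Relb 0.401, 1.16 and 0.856. Il1b and Relb were under the array median in wild-type and entered this comparison through the DNase II-deficient array. Their log2 differences of 2.93 and 1.53 stand against a spread of 1.26. For Nfkbia the log2 difference was 2.49 against a spread of 0.44. Nfkbia and Il1b were 2.19-fold and 2.10-fold lower in double-deficient than in DNase II-deficient, and Nfkbia was still 2.57-fold above wild-type there.

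Among 6 compared transcription factors of the response, Cebpb and Cebpd were at least 2-fold higher in DNase II-deficient than in wild-type. The background over all genes was 7.67% here as well. Cebpb read 1.87, 8.92 and 3.71 and Cebpd 2.30, 9.57 and 4.45, so the double-deficient array lay between the others for both, 1.99-fold and 1.94-fold above wild-type. With 75th percentile and cyclic loess scaling 2 of the 6 transcription factors reached 2-fold in that comparison. Cebpa, the C/EBP of resting hepatocytes, read 0.746, 0.603 and 0.815, under the array median throughout. Serpina3n and Hp had this same order of the arrays as Cebpb and Cebpd, and Saa3, Saa4, Crp and Apcs did not. The share of all genes with this order was not counted. For Hp the difference between the mutants, -0.37, was close to the spread of 0.35. For Serpina3n double-deficient and wild-type were not compared. Stat3, Socs3 and Nfkbia had the same order, and a link of Cebpb and Cebpd to the acute phase genes was not tested.

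**Figure D3:**
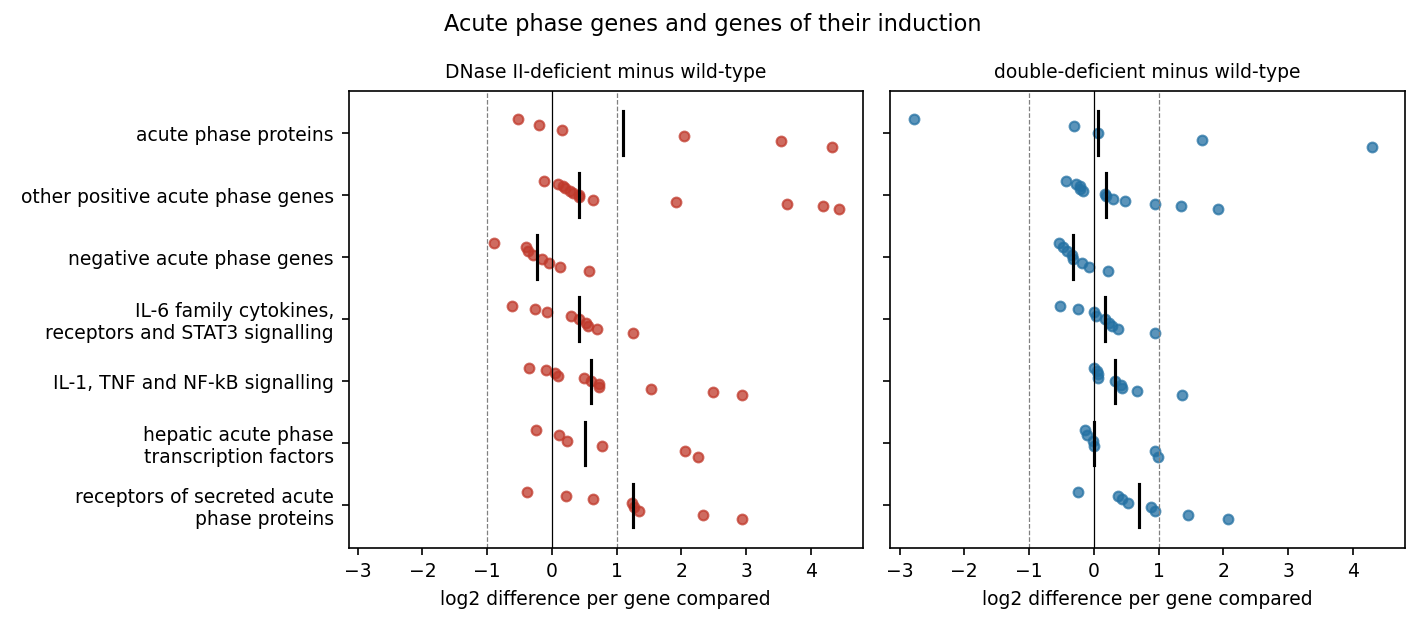
Log2 difference per gene compared for the acute phase genes, related acute phase genes, genes that induce them and receptors that bind them, in DNase II-deficient minus wild-type (left) and double-deficient minus wild-type (right); black bars are medians and dashed lines mark 2-fold. The acute phase genes range from -0.53 to 4.33 on the left and from -2.78 to 4.30 on the right, and the negative acute phase genes lie within 2-fold in both.

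Receptors for the secreted proteins were counted from a list of 12, of which 11 were measured and 8 compared. In DNase II-deficient minus wild-type 5 of 8 were at least 2-fold higher and 0 lower, and in double-deficient minus wild-type 2 of 8, or 3 of 8 under the other scalings. Over all genes the shares were 7.67% higher and 6.17% lower in the first comparison, and 2.05% higher in the second. Fpr2, the formyl peptide receptor that binds serum amyloid A, read 1.19, 9.11 and 5.01, and Tlr2, a Toll-like receptor also described to bind it, 1.83, 4.37 and 4.99. These 2 were higher in both mutants, as Saa3 was. Cd36, Scarb1 and Lrp1 stayed within 2-fold of wild-type in both mutants. Cd36 read 1.24, 1.44 and 1.66, Scarb1 7.49, 5.77 and 6.30, and Lrp1 7.41, 11.5 and 9.58. The Fc receptors that bind pentraxins included Fcgr1, at 4.22, 21.3 and 6.03, Fcgr2b, at 0.746, 1.88 and 1.39, and Fcgr3, at 7.86, 18.4 and 15.2. All of these were at least 2-fold higher in DNase II-deficient than in wild-type, where Fcgr2b was under the array median. Fcgr1 was 3.53-fold lower in double-deficient than in DNase II-deficient, the only one of the 8 that was 2-fold different between the mutants. Cd163, the macrophage receptor of haptoglobin bound to haemoglobin, was under the array median in all 3 arrays, at 0.710, 0.460 and 0.587.

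Cell type markers were examined because the arrays hold RNA of the whole organ, in which fewer cells of a type and less RNA per cell cannot be told apart. Background shares over all genes apply to the counts in this and the next paragraph. They were 7.67% at least 2-fold higher and 6.17% lower in DNase II-deficient minus wild-type. In double-deficient minus DNase II-deficient they were 3.11% and 4.85%, and in double-deficient minus wild-type 2.05% and 0.735%. Of 12 measured hepatocyte markers of 15 listed, 0 were 2-fold different in any comparison as deposited (1 was, in DNase II-deficient minus wild-type, with cyclic loess scaling), and their summed level was 3031.0 in wild-type, 3061.5 in DNase II-deficient and 2567.1 in double-deficient. None of the 12 was at the floor. Apoa1, Ahsg, Ttr and Rbp4 among them were also counted as negative acute phase genes, so the results of these lists overlap. Granulocyte markers were high in the same arrays as Saa3 and Hp. Of 14 listed, 12 were measured, and all 10 compared were at least 2-fold higher in DNase II-deficient than in wild-type, with a median log2 difference of 1.65; in double-deficient minus wild-type 8 of 9 were, with a median of 1.24. Their summed level was 278.9, 795.3 and 638.2, with 0 markers at the floor, and the neutrophil elastase gene Elane read 21.9, 60.5 and 45.8. The myeloperoxidase gene Mpo was dim, at 0.258, 0.758 and 0.412. The highest granulocyte markers compared lay at 2.18 and 1.53. The 2.18 is that of Itgam, dim at 0.296 in wild-type and with a spread of 1.26. The log2 differences of Hp, 2.04 and 1.67, lie above the granulocyte medians. Hp lay below the highest marker in DNase II-deficient minus wild-type and above it in double-deficient minus wild-type. Those of Saa3, 3.53 and 4.30, lie above the highest marker in both. The part of granulocytes in the levels of Hp and Saa3 was not tested.

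Macrophage markers split. Of 14 listed, 10 were measured, with a summed level of 173.1, 167.1 and 180.6. In DNase II-deficient minus wild-type 1 of 9 compared, Lyz2, was at least 2-fold higher and 3, Marco, Cd5l and Clec4f, were at least 2-fold lower. These 3 were also 2-fold lower in double-deficient minus wild-type, where 0 were 2-fold higher as deposited. With quantile and cyclic loess scaling 2 were 2-fold higher in each of these comparisons, and with 75th percentile scaling 1 in each. Adgre1, which encodes the macrophage antigen F4/80, was dim and even, at 0.269, 0.282 and 0.271. Clec4f, the Kupffer cell lectin, was at the floor in double-deficient, and the others were above it in all arrays. Endothelial and stellate markers, 10 of 11 measured, summed to 129.6, 177.8 and 139.7 with none at the floor, and Kdr, a receptor of endothelial growth factor, read 10.6, 10.8 and 7.56. In DNase II-deficient minus wild-type 3 of 8 were at least 2-fold higher (4 under each other scaling) and 1, Stab2, lower (0 with quantile and cyclic loess scaling), and in double-deficient minus DNase II-deficient 2 of 9 were lower and 1, Stab2, higher; 3 were lower under each other scaling, and 0 higher with cyclic loess. Erythroid markers, 7 of 11 measured, summed to 1775.1, 1418.4 and 1631.1 with none at the floor. The globin gene Hbb-bt read 1031.8, 894.5 and 993.5, and 5 of 7 were at least 2-fold lower in DNase II-deficient than in wild-type, or 2 of 7 with cyclic loess scaling. The part of these cell types in the levels of the acute phase genes was not tested. Genes that respond to interferon were high in the array in which Serpina3n was, and 8 of 10 listed were measured. All 8 were at least 2-fold higher in DNase II-deficient than in wild-type, with a median of 5.41. They were also at least 2-fold lower in double-deficient than in DNase II-deficient, with a median of -4.73. Ifit1, Ifit3, Isg15, Rsad2, Oasl1 and Mx1 were under the array median in wild-type and entered the first comparison through the DNase II-deficient array. A link of the interferon genes to Serpina3n was not tested. In double-deficient minus wild-type 2 of 4 interferon genes compared, Ifit1 and Oasl1, were at least 2-fold higher, with a median of 1.20. No gene lay near that median: Ifit1 and Oasl1 were at 2.33 and 2.54, Irf7 and Usp18 at -0.48 and 0.08. Ifit1 and Oasl1 entered this comparison through the double-deficient array. Ifit3, Isg15 and Rsad2 were not compared and differed by -0.49, 0.51 and 0.82. Mx1 was at the floor in both arrays.

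**Figure D4:**
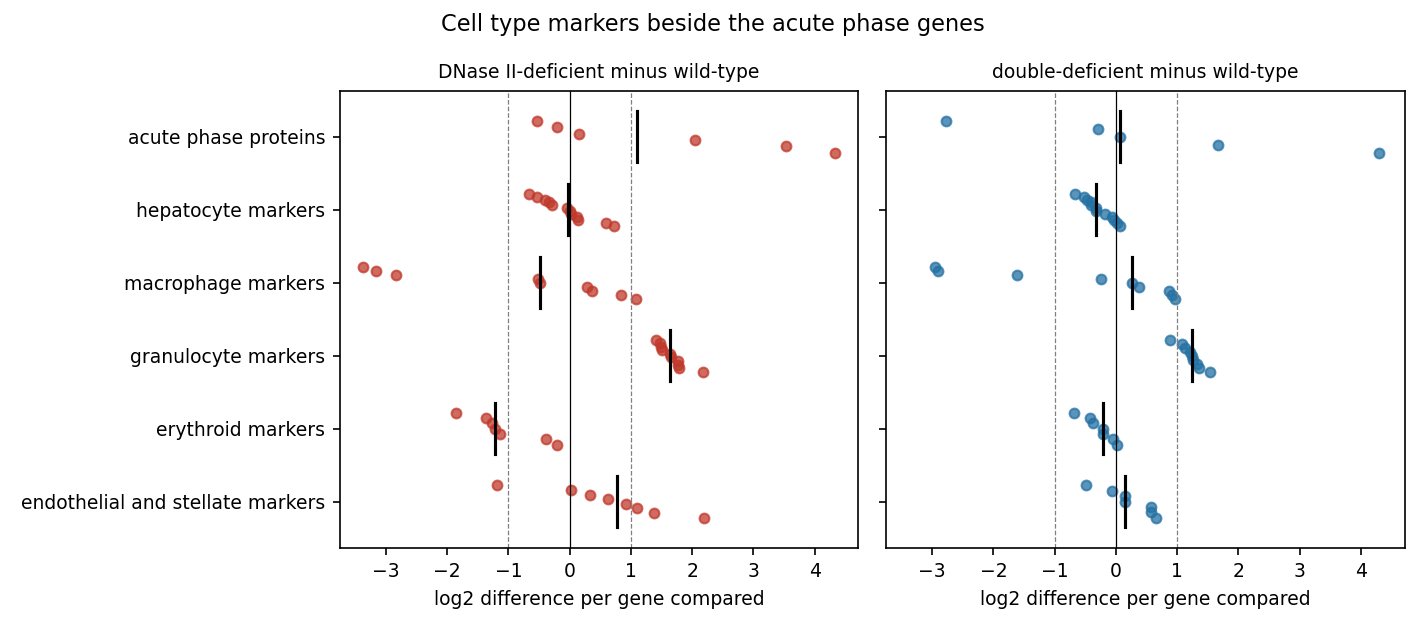
Log2 difference per gene compared for the acute phase genes and for markers of 5 cell types, in DNase II-deficient minus wild-type (left) and double-deficient minus wild-type (right); black bars are medians and dashed lines mark 2-fold. Granulocyte markers lie at medians of 1.65 and 1.24, hepatocyte markers at -0.02 and -0.33; the sign of -0.02 turned under each other scaling (0.11 with the 75th percentile).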

How the data were processed

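Per the labels, poly(A) RNA was selected, copied into cDNA, transcribed in vitro with a biotinylated nucleotide, hybridised to a Uniset Mouse 20K CodeLink array, stained with Cy5-streptavidin and read with CodeLink software; no version, background method or filter is stated there. The deposited values are normalised intensity on a linear scale, which hides differences in total RNA. Of 20289 probes, 125 without a value in some array were left out. Genes were named from the platform annotation: 15120 probes had 1 symbol, 38 several and 5131 none. For the 1244 genes with several probes the brightest was used. Values were floored at the 25th percentile and log2 transformed (Python 3.11.15, pandas 2.3.3, numpy 2.4.6; cyclic loess with limma 3.58.1 in R 4.3.3; alignment with Biopython 1.88). The spread is 1.4826 times the median absolute deviation. The steps were tested on simulated data with independent noise and changes planted in bright probes only, which does not bear on dim genes.

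The members and lists were chosen with earlier results of these data known. Named from each list were up to 4 genes at least 2-fold different with the largest difference between DNase II-deficient and wild-type, up to 2 between the mutants (neither for marker lists), and the first 2 listed of the upstream and marker lists (Alb and Csf1r were not measured), plus the 3 of most like pattern; the interferon list is given by its counts. Hpx, Orm3, Fga, Fgb, Fgg, Ttr, Stat3, Socs3, Serpina3a, Cd163, Cd36, Scarb1, Lrp1, Apoa1, Ahsg, Rbp4, Lyz2, Marco, Cd5l and Clec4f were named after their values were seen. So were Fcgr3, Itgam and the interferon genes named beside those counts. Across lists, 6 genes were in more than 1 list. Alternatives were 3 scalings, 2 floors, 2 level filters, the mean over probes and a 1.5-fold threshold. No test was possible with 1 array per genotype.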

Additional observations from a re-analysis of the deposited data

How the results depend on the processing

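The 8 differences of at least 2-fold among the acute phase genes compared kept their direction and 2-fold size under all 9 alternatives. The 2 level filters, the mean over probes and the 1.5-fold threshold cannot alter the log2 difference of a gene with 1 probe. Only the 3 scalings and the 2 floors could move it, and the 193 values below include those that could not move. For Saa2 and for Serpina3n in double-deficient minus wild-type, which were not compared, no difference is left with the floor at the array median, where both arrays are at it. Of 193 values of single acute phase genes under an alternative, 189 moved by less than the spread, taken for genes not compared as the typical spread of the comparison (0.49 in DNase II-deficient minus wild-type, 0.40 between the mutants and 0.27 in double-deficient minus wild-type), and 0 reversed a 2-fold difference. The 4 that moved more rest on the floor: Serpina3n in DNase II-deficient minus wild-type was 3.20 with the floor at the array median, and with the floor at the 10th percentile Saa2 was 2.46 and 1.89 in double-deficient minus DNase II-deficient and minus wild-type, and Orm1 was 1.47 in the latter. Without a level filter, which adds genes at or near the floor, the median of the acute phase genes in DNase II-deficient minus wild-type was -0.03 in place of 1.10, 1 gene (Saa2) in place of 0 was 2-fold higher in double-deficient minus DNase II-deficient, and 4 genes in place of 2 were in double-deficient minus wild-type, Saa2 and Serpina3n being added. At 1.5-fold, 1 gene (Saa3) in place of 0 was higher in double-deficient than in DNase II-deficient. Over the alternatives, the log2 difference of Saa4 between double-deficient and wild-type ranged from -2.78 to -2.64, and that of Saa3 from 4.28 to 4.39. With 1 array per genotype, array and genotype cannot be told apart. No paired analysis was possible because each genotype has 1 array and no difference was tested. Signal near background limits Saa1, Saa2, Orm1 and Orm2.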
